A study of Mus musculus with 16 samples.

Results

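Genes that make, take up and export cholesterol were followed across cultures of mouse male germline stem cells, which maintain the spermatogenic line in the testis. The set was defined by name: 29 genes for the enzymes of sterol synthesis, the proteins that control the transcription factor SREBP2, sterol transport proteins, and the exporters and receptors of the LXR system. Of these, 28 were found among the 27128 genes of the deposited tables, and Hmgcs1 is not analysed here. All 28 passed the filter on low values (a mean of at least 1 CPM, library counts scaled to a common total, over the 12 libraries), as did 14301 genes in all. They comprise 17 synthesis enzymes, 6 of the mevalonate steps and 11 of the sterol steps, 4 genes of SREBP control, 3 of transport, and 4 of export and LXR signalling.

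Cells build cholesterol from acetyl-CoA through mevalonate, isoprenoid diphosphates and squalene, which is cyclised to lanosterol and then trimmed, reduced and isomerised. SCAP carries SREBP2 from the endoplasmic reticulum to the Golgi, where proteases release its active part, and INSIG proteins hold the SCAP complex back when sterols are plentiful. SREBP2 activates the synthesis genes and Insig1 itself, whereas LXR, bound by oxysterols, activates genes of cholesterol export.

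All groups came from the mouse line B6;CBA-Tg(Pou5f1-EGFP)2Mnn/J at postnatal day 5.5, which carry EGFP under the Pou5f1 (Oct4) promoter. Oct4-positive, KIT-negative germ cells had been sorted and expanded in StemPro-34 SFM with GDNF, bFGF and EGF, per the labels. The feeder-removal series held a library of cells on mouse embryonic fibroblast (MEF) feeders (day 0) and libraries at days 4 and 9 after the move to Matrigel, a basement membrane extract. The density pair compared Matrigel at 0.1 µg/cm2, on which cells were epithelial-like, with Matrigel at 10 µg/cm2, on which they were mesenchymal-like. Cells kept at 10 µg/cm2 were also sorted by GFP into low, mid and high fractions, called GFP-low, GFP-mid and GFP-high. The inhibitor series held cells on MEF feeders given DMSO, the solvent, or, for 48 hours, UNC0638 at 0.5, 1 or 2 µM. This compound is an inhibitor of the histone methyltransferases G9a and GLP. Feeder cultures that were not sorted can contain the feeder cells, and the labels do not say how many animals or cultures stand behind a library. With 1 library in each of the 12 groups, differences have no replicate check and none was tested.

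Library totals ran from 4335185 to 12019651 counts. The 17 germ-cell markers used as a check were detected in every library, with summed levels of 2305 to 4007 TPM (a scale per transcript, corrected for gene length). Transcripts of 20 fibroblast markers summed to 1624 TPM with DMSO and to 3629 TPM in the mesenchymal-like library, and to between 39.3 and 605 TPM in the other 10; Fap, one of the defining markers, was at 0 in all but the 1 µM library. The 11 macrophage markers summed to 2732 TPM in GFP-low, 2498 TPM in GFP-mid and 361 TPM in GFP-high cells and to at most 64.9 TPM elsewhere, where Mpeg1 was at most 0.08 TPM, Csf1r 0.37 TPM and Tyrobp 1.64 TPM. Of the same list, Lyzs was at 20.4 TPM in the epithelial-like and 38.6 TPM in the mesenchymal-like library and at 0.13 to 0.88 TPM in the feeder-removal and inhibitor libraries. In bulk RNA, fewer cells of a type and less RNA per cell cannot be told apart.

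**Figure D1:**
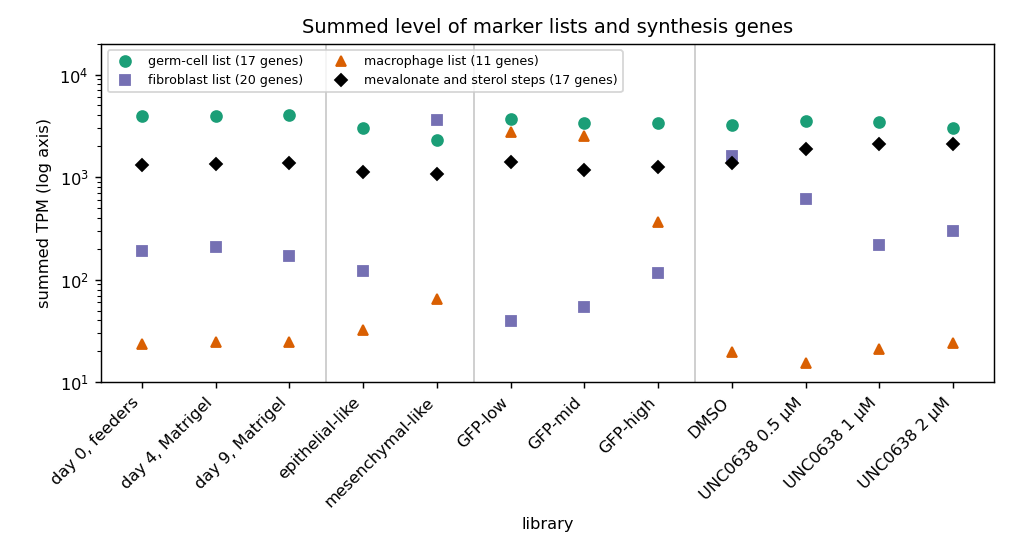
Summed TPM (log axis) of the germ-cell, fibroblast and macrophage marker lists and of the 17 synthesis genes in each of the 12 libraries, 1 point per list and library. The fibroblast sum is highest in the mesenchymal-like (3629 TPM) and DMSO (1624 TPM) libraries, and the macrophage sum in the GFP-low and GFP-mid fractions (2732 and 2498 TPM).

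The synthesis genes were active in every culture. Their summed level lay between 1074 TPM in the mesenchymal-like library and 1412 TPM in the GFP-low fraction in the 9 libraries other than the 3 given UNC0638, where it was 1878, 2091 and 2107 TPM at 0.5, 1 and 2 µM. Fdps, which makes farnesyl diphosphate, had the highest mean level per length of the 28 genes, 448 TPM (lowest 300.5, highest 701). Idi1, the isomerase of isopentenyl diphosphate, and Insig1 followed with means of 154 TPM each. Tm7sf2, a sterol reductase, was lowest, with a mean of 1.53 TPM and 0 to 19 counts per library. Nr1h3, which encodes LXR alpha, averaged 1.78 TPM (2 to 50 counts), and Ebp, a sterol isomerase, 4.81 TPM (10 to 59 counts), so that all 3 are known only coarsely at this depth. Acat2, Fdps and Fdft1 had counts that were not whole in all 12 libraries, which happens when RSEM divides reads among similar sequences such as gene copies, so their values are uncertain.

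**Figure D2:**
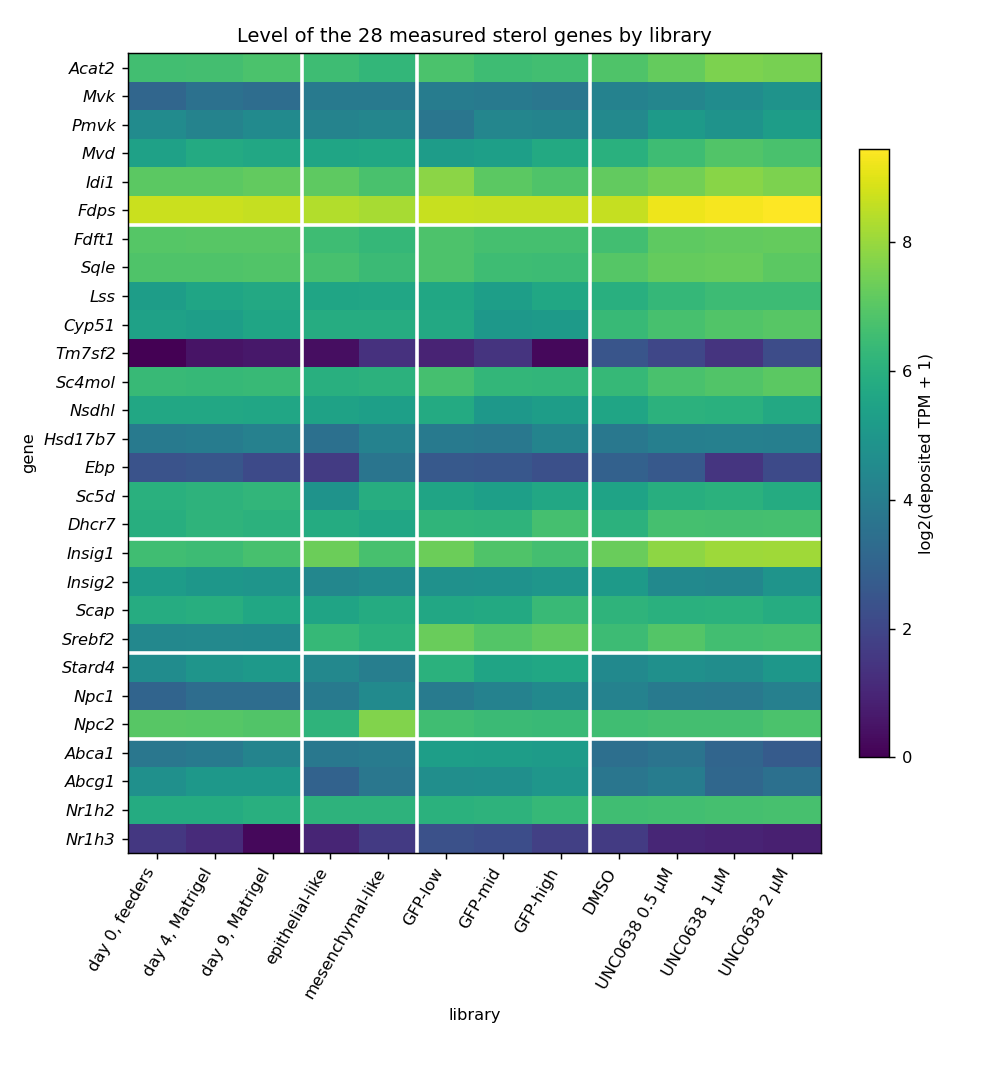
Level of each of the 28 measured genes (rows, ordered by role) in each of the 12 libraries (columns), as log2 of the deposited TPM plus 1; white lines part roles and experiments. Fdps is the brightest row (mean 448 TPM) and Tm7sf2 the darkest (mean 1.53 TPM).

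With UNC0638, most synthesis genes were higher than with DMSO, and by more at 1 and 2 µM than at 0.5 µM. Differences below are log2 ratios of CPM + 1, with the 95% interval of counting error of the read split in parentheses; a gene is called higher or lower at 1.5-fold (0.585 on the log2 scale). The median log2 ratio of the 17 synthesis genes was 0.38 at 0.5 µM, 0.55 at 1 µM and 0.65 at 2 µM, where the medians of all genes tested were -0.01, 0.00 and -0.02. The 6 mevalonate genes had medians of 0.45, 0.69 and 0.75, and the 11 genes of the sterol steps 0.33, 0.52 and 0.37. Only the median of the mevalonate genes was thus higher at each higher dose. At each dose 15 of the 17 lay above 0, and the other two were Tm7sf2 and Ebp. The 3 comparisons share the DMSO library.

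More genes were called higher at 1 and 2 µM than at 0.5 µM. At 0.5 µM 3 of 28 (10.7%) were called higher and 1 (3.57%) lower, where the shares of all genes tested were 6.13% and 7.62%. At 1 µM 7 (25.0%) were higher and 3 (10.7%) lower, beside 8.14% and 9.91% of all genes. At 2 µM 10 (35.7%) were higher and 3 (10.7%) lower, beside 11.4% and 10.7% of all genes. The calls at 0.5 µM depend on the scaling: with ratios centred on the germ-cell markers, which lowers all of them by 0.16, none was called higher and 2 were called lower, and the synthesis median was 0.22.

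Summed transcripts of the fibroblast markers moved the opposite way in the same libraries, from 1624 TPM with DMSO to 605, 220 and 299 TPM at 0.5, 1 and 2 µM, and the part of this in the ratios against DMSO was not tested. The germ-cell markers summed to 3243, 3548, 3419 and 3011 TPM in those 4 libraries. Macrophage markers stayed between 15.3 and 24.2 TPM.

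**Figure D3:**
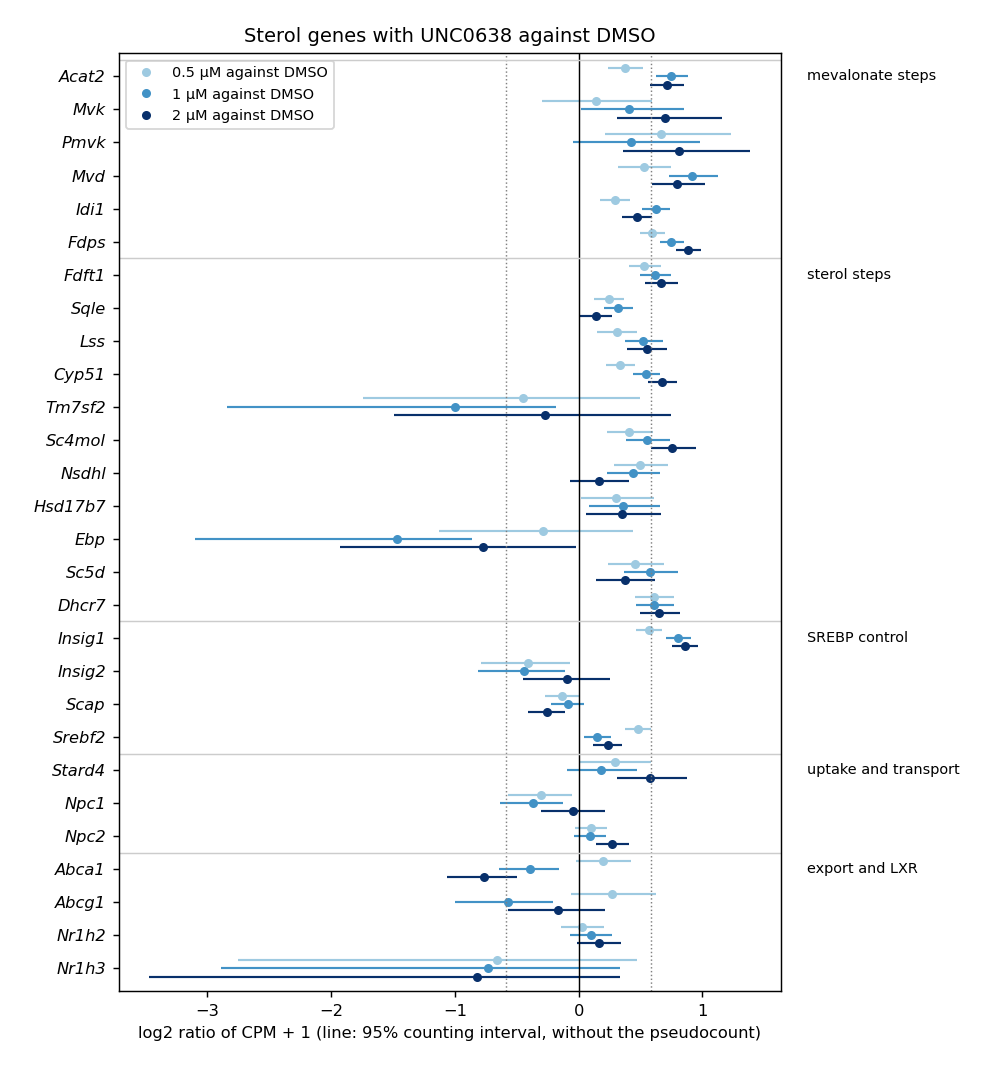
Log2 ratio of CPM + 1 between each UNC0638 library and the DMSO library for the 28 genes, grouped by role; points are the 3 doses, lines the 95% counting intervals, which are computed without the pseudocount, and dotted lines 1.5-fold. Of the 17 synthesis genes 15 lie to the right of 0 at every dose, while Tm7sf2, Ebp and Nr1h3 lie to the left with wide intervals.

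All 6 mevalonate genes had ratios above 0 at every dose, and 5 of them were called higher at 2 µM. Fdps stood at 391 TPM with DMSO and at 590, 648 and 701 TPM at 0.5, 1 and 2 µM, so each higher dose had the higher level. Its log2 ratios were 0.60 (0.50 to 0.70), 0.75 (0.65 to 0.85) and 0.88 (0.78 to 0.99). Mvd, which decarboxylates mevalonate diphosphate, was at 62.6, 90.3, 117 and 106 TPM in the same order, with its highest level at 1 µM (0.92, 0.73 to 1.13). Acat2, the thiolase that condenses acetyl-CoA at the head of the pathway, was at 115 TPM with DMSO and at 149, 191 and 183 TPM with the inhibitor. Its ratios were 0.75 (0.62 to 0.88) at 1 µM and 0.71 (0.58 to 0.86) at 2 µM. The kinases Mvk and Pmvk were low throughout: Mvk was at 17.4, 19.2, 23.1 and 27.9 TPM and Pmvk at 20.8, 34.1, 28.2 and 36.9 TPM. At 2 µM their ratios were 0.70 (0.31 to 1.16) and 0.81 (0.36 to 1.39). Idi1 was at 143, 175, 217 and 192 TPM, and it was past 1.5-fold at 1 µM (0.62, 0.51 to 0.74). At 2 µM its ratio was 0.47, or 0.62 when centred on the germ-cell markers.

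The sterol steps were less uniform. Cyp51, the lanosterol demethylase, was at 81.4 TPM with DMSO and at 102, 117 and 127 TPM with rising dose, a ratio of 0.68 (0.56 to 0.79) at 2 µM. Sc4mol (current symbol Msmo1), the methylsterol oxidase of the following steps, was at 80.6, 107, 117 and 133 TPM, a ratio of 0.76 (0.58 to 0.95) at 2 µM. Both were thus in the order of the doses. Fdft1, squalene synthase, was at 95.1, 137, 144 and 147 TPM, and Dhcr7, which reduces the last double bond to be removed from the ring, at 65.6, 100.03, 99.25 and 100.42 TPM. The ratios of Dhcr7 were 0.61, 0.61 and 0.65, or 0.45, 0.62 and 0.80 when centred on the germ-cell markers. Lss, lanosterol synthase, reached 88.2 and 88.6 TPM at 1 and 2 µM from 62.1 TPM, short of 1.5-fold (0.52 and 0.55), which the ratio at 2 µM passed when centred on the germ-cell markers (0.70).

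Other sterol enzymes did not follow the dose. Sqle, the squalene epoxidase, another control point of the pathway, was at 125, 147, 154 and 134 TPM; its ratio of 0.14 at 2 µM had an interval of 0.01 to 0.27. Nsdhl, the dehydrogenase that acts after Sc4mol, was at 46.6, 65.8, 62.4 and 50.9 TPM, and its ratio was largest at 0.5 µM (0.50, 0.29 to 0.72) and within counting error of 0 at 2 µM (0.17, -0.07 to 0.41). Sc5d, lathosterol oxidase, was at 43.9, 60.3, 64.9 and 55.6 TPM. Hsd17b7, the sterol ketoreductase, was at 12.7, 15.7, 16.2 and 15.9 TPM. Ebp was lower, at 33 counts with DMSO and 27, 10 and 15 counts with the inhibitor (-1.47 at 1 µM, -3.10 to -0.86; -0.77 at 2 µM, -1.93 to -0.02, and -0.46 with a pseudocount of 5). Tm7sf2 had 19, 13, 8 and 13 counts and was called lower at 1 µM (-1.0, -2.84 to -0.18; -0.46 with a pseudocount of 5). When centred on the germ-cell markers it was also past 1.5-fold at 0.5 µM (-0.61).

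Most of the promoters examined for these genes hold the same short sequence. RefSeq windows from 250 bases before to 50 bases after the start (GRCm38.p6) were used for 22 of the 28 genes, 14 of them synthesis genes. CCAAT, the core of the NF-Y motif, was found on either strand in 13 of these 14 (92.9%, Acat2 lacks it). It was in 17 of the 22 (77.3%), where 43.9% of 9762 tested genes with a window hold it. Of the further pathway genes described below, 16 of 22 with a window (72.7%) hold it too, so it is not particular to this set. A gene with several windows counts if any of them holds the motif, as for Pmvk, Dhcr7 and Insig2. GGGCGG, the GC box, was in 13 of 14 (92.9%) and in 69.8% of the tested genes. CACGTG, the E-box, was in 3 of 14 (21.4%) and in 12.2%. TCACNCCAC, a pattern for the sterol regulatory element, was in 0 of 22 and in 1.39% of the tested genes, so that these exact letters were simply not in the windows used. Each motif was searched on its own, so matches of different motifs may overlap. The 250 bases before the start are shown 5′ to 3′ on the gene's strand for 4 genes called higher and 2 called lower at 2 µM, chosen after their values were seen, with CCAAT or its complement ATTGG in capitals. A match is a description of the sequence, and neither binding nor activity was measured.
Mvd: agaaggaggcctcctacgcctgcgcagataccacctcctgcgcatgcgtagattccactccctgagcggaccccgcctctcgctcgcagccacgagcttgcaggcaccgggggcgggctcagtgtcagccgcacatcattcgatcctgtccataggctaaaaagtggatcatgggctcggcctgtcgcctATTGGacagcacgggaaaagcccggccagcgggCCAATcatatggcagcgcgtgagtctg
Cyp51: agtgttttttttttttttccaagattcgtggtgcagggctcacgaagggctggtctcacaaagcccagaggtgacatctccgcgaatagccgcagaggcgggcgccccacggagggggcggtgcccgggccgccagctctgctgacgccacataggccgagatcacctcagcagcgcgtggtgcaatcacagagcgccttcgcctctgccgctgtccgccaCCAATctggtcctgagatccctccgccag
Sc4mol: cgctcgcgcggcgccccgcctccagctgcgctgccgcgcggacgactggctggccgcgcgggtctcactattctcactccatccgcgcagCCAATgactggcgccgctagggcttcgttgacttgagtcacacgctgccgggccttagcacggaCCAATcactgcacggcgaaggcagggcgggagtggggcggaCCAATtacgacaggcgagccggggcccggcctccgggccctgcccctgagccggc
Insig1: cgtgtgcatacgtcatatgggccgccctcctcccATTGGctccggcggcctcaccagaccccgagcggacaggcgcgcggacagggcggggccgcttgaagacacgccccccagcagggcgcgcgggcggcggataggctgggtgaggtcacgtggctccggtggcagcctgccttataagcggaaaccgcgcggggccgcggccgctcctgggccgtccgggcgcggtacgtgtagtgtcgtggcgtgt
Ebp: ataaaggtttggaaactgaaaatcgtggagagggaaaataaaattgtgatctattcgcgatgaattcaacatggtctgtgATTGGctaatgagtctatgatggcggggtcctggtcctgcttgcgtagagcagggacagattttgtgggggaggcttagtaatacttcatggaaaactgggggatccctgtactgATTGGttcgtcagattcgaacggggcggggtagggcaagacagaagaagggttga
Abca1: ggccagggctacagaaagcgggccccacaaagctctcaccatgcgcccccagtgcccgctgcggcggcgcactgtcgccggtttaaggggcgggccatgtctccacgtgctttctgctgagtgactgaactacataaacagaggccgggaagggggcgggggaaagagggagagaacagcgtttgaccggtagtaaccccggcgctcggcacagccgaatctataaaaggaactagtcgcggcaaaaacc

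These windows are chr8:122443423-122443672 (minus strand) for Mvd, chr5:4104698-4104947 (minus) for Cyp51, chr8:64733579-64733828 (minus) for Sc4mol, chr5:28071162-28071411 (plus) for Insig1, chrX:8193513-8193762 (minus) for Ebp and chr4:53159896-53160145 (minus) for Abca1. In Mvd the capitals begin 60 and 27 bases before the start, in Cyp51 29, in Sc4mol 160, 96 and 55, and in Insig1 216 bases before it. Ebp, which was lower with the inhibitor, holds the motif too, at 170 and 55 bases, and the Abca1 window has none. Among the 3 export and LXR genes with a window, none has CCAAT. Of further export and LXR genes with a window, Pltp and Mboat5 (now Lpcat3, named for this match) hold it and Apoe does not.

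Of the 4 SREBP control genes, Insig1 alone was called. It was at 155 TPM with DMSO and 230, 268 and 274 TPM with the inhibitor, and its ratios were 0.57 (0.47 to 0.68), 0.81 (0.71 to 0.91) and 0.86 (0.76 to 0.97). Insig1 was thus just short of 1.5-fold at 0.5 µM and past it at the higher doses. Srebf2, the gene of SREBP2, was at 87.3, 121, 95.7 and 99.9 TPM, highest at 0.5 µM (0.48, 0.37 to 0.59) and closer to DMSO at 2 µM (0.23, 0.12 to 0.35). Scap was at 69.3, 62.8, 64.2 and 56.2 TPM (-0.26 at 2 µM). Insig2, the paralogue of Insig1, was at 34.2, 21.3, 19.5 and 28.96 TPM; its CPM ratios of -0.41 and -0.45 at 0.5 and 1 µM were short of 1.5-fold, but on the deposited TPM they were -0.66 and -0.78.

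None of the 3 transport genes was called at any dose. Stard4, a cytosolic sterol carrier, was at 21.2, 26.0, 23.8 and 31.1 TPM, and its ratio at 2 µM was 0.58 (0.31 to 0.87), just under 1.5-fold. It passed 1.5-fold on total counts (0.60), with a pseudocount of 0.1 (0.59) and when centred on the germ-cell markers (0.72). Npc1 and Npc2, which pass cholesterol out of lysosomes, had ratios between -0.37 and 0.27 at the 3 doses.

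Of the 4 export and LXR genes, Abca1 and Nr1h3 were called lower at 2 µM and none was called higher at any dose. Abca1, which loads cholesterol onto apolipoproteins, was at 9.89 TPM with DMSO, 11.3 TPM at 0.5 µM, and 7.40 and 5.61 TPM at 1 and 2 µM, the lowest level of the 12 libraries. Its ratio at 2 µM was -0.76 (-1.06 to -0.50). Abcg1, the exporter to high-density lipoprotein, was at 12, 14.5, 7.82 and 10.3 TPM, lowest at 1 µM (-0.57, -0.995 to -0.20; -0.59 with a pseudocount of 0.1). Nr1h2, the gene of LXR beta, was at 94.1, 95.8, 99.4 and 102 TPM, with log2 ratios of 0.03, 0.10 and 0.16. Nr1h3 had 12, 6, 6 and 4 counts; it was called lower at each dose, each interval includes 0, and with a pseudocount of 5 no call was left (-0.26, -0.29 and -0.32).

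The order of doses and the step from 1 to 2 µM give further views of the series. CPM was in the order of the 4 libraries (DMSO, 0.5, 1 and 2 µM) in 9 of the 28 genes for a rise (Mvk, Fdps, Fdft1, Lss, Cyp51, Sc4mol, Dhcr7, Insig1 and Nr1h2) and in 1, Nr1h3, for a fall, where 6.50% of all genes were in rising and 7.81% in falling order. On the deposited TPM Dhcr7 was not in this order. The 2 µM library set against the 1 µM library, a comparison without the DMSO library, had a synthesis median of 0.04, against 0.55 for 1 µM and DMSO. Between these doses 2 genes (7.14%) were called higher, Tm7sf2 and Ebp, both with intervals that include 0 and ratios of 0.32 with a pseudocount of 5, and none was called lower, beside 9.10% and 5.78% of all genes.

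Further genes of the pathway were also examined, of which 35 of 36 in the tables passed the filter. At 0.5 µM 1 was called higher and 6 lower, at 1 µM 1 and 7, and at 2 µM 3 and 7, beside 6.13% and 7.62%, 8.14% and 9.91%, and 11.4% and 10.7% of all genes. Osbp, which moves sterol from the endoplasmic reticulum to the Golgi, was among those higher at 2 µM, at 6.27 TPM with DMSO and 9.24, 7.36 and 12.9 TPM with the inhibitor (1.03, 0.69 to 1.47). Mylip, a ubiquitin ligase gene, was called higher at 1 µM alone (0.88, 0.34 to 1.68). Scarb1, the receptor for high-density lipoprotein, named after its value was seen, was the gene called higher at 0.5 µM (0.62, 0.43 to 0.82).

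Of 7 genes of sterol esters and oxysterols that passed the filter, 4 were called lower and 0 higher at each dose, beside 7.62%, 9.91% and 10.7% of all genes called lower. Their median log2 ratios were -0.70, -0.64 and -0.68, beside -0.01, -0.002 and -0.02 for all genes. Cyp46a1, the cholesterol hydroxylase known from neurons, was at 8.71 TPM with DMSO and 3.95, 4.67 and 3.85 TPM with the inhibitor (-0.99, -1.94 to -0.38 at 2 µM). Soat1 and Aadacl1 (current symbol Nceh1), which form and cleave sterol esters and are named after their values were seen, had 215 to 324 and 174 to 231 counts in these 4 libraries and were not called. The other 5 genes had 1 to 53 counts, and the median half-width of the counting intervals of all 7 was 0.88 at 2 µM.

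In the sorted fractions, the summed level of the synthesis genes was 1412 TPM in GFP-low, 1184 TPM in GFP-mid and 1243 TPM in GFP-high, so it was highest in GFP-low and did not fall further from GFP-mid to GFP-high. The median log2 ratio of the 17 genes was -0.20 for GFP-mid and -0.31 for GFP-high against GFP-low, where all genes had medians of -0.01 and -0.02. Both comparisons share the GFP-low library. In GFP-mid 0 genes were called higher and 4 (14.3%) lower, beside 11.4% and 4.38% of all genes. This balance depends on the setting: when centred on the germ-cell markers 2 were higher and 2 lower, and with a pseudocount of 0.1 also 2 were higher, Pmvk and Tm7sf2 in both cases. In GFP-high 1 (3.57%) was higher and 6 (21.4%) lower, beside 16.3% and 8.82% of all genes. The medians depend on the scaling: centring on the germ-cell markers gave -0.03 for GFP-mid, and the deposited TPM gave -0.16 for GFP-high.

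Idi1 differed most, with 223 TPM in GFP-low, 134 in GFP-mid and 114 in GFP-high. Its ratios were -0.79 (-0.88 to -0.71) and -1.11 (-1.22 to -1.02). Cyp51 was at 51.1, 31.9 and 34.2 TPM and Nsdhl at 53.4, 32.1 and 37.1 TPM, so both were as low in GFP-mid as in GFP-high. Their ratios for GFP-high were -0.72 and -0.67, and on the deposited TPM they were short of 1.5-fold at -0.56 and -0.51. Nsdhl was short of it also on total counts (-0.57) and when centred on the germ-cell markers (-0.55). Insig1 was at 160, 114 and 97.7 TPM, with ratios of -0.54 (-0.63 to -0.46) and -0.86 (-0.96 to -0.76). Stard4 was at 65.5, 45.1 and 49.1 TPM (-0.59 and -0.56, past 1.5-fold in GFP-mid). The 4 genes called lower in GFP-mid were Idi1, Cyp51, Nsdhl and Stard4, of which Cyp51 (-0.57) and Stard4 (-0.42) were short of 1.5-fold when centred on the germ-cell markers, and Stard4 also with a pseudocount of 5 (-0.57), on total counts (-0.53) and on the deposited TPM (-0.53). Pmvk, phosphomevalonate kinase, was short of 1.5-fold in GFP-mid at 0.57 (0.15 to 1.15) and passed it on total counts (0.62), on the deposited TPM (0.66), with a pseudocount of 0.1 (0.63) and when centred on the germ-cell markers (0.74). Tm7sf2, at 0.42 (-0.57 to 2.47), passed it under the last of these (0.59) and with a pseudocount of 0.1 (0.76). Mvd (0.36, 0.15 to 0.59), Hsd17b7 (0.23, 0.02 to 0.46) and Dhcr7 (0.32, 0.20 to 0.44) were higher in GFP-high than in GFP-low, short of 1.5-fold. Dhcr7 was at 71.8, 69.6 and 99.7 TPM and Scap at 49.8, 52.8 and 83.3 TPM, the latter just past 1.5-fold in GFP-high (0.59, 0.48 to 0.70; 0.57 with a pseudocount of 5). Tm7sf2 (6, 17 and 1 counts; -0.66, -8.35 to 0.22 in GFP-high) and Nr1h3 (36, 50 and 23 counts; -0.68, -1.71 to -0.09) were also called lower in GFP-high. Tm7sf2 lost its call with a pseudocount of 5 (-0.17) and when centred on the germ-cell markers (-0.55), and Nr1h3 under both (-0.35 and -0.56) and on the deposited TPM (-0.56). Pmvk on the deposited TPM (0.59) and Sc4mol with a pseudocount of 0.1 (-0.59) passed 1.5-fold in GFP-high, where their ratios were 0.41 and -0.58.

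Macrophage transcripts differed between these fractions, and their part in the sterol genes was not tested. Their 11 markers summed to 2732 TPM in GFP-low, 2498 in GFP-mid and 361 in GFP-high, with none at 0. Apoe, the apolipoprotein that macrophages make in quantity, was at 738, 1054 and 142 TPM (-2.52, -2.66 to -2.42 for GFP-high) and at 10.5 to 38.6 TPM in the 9 other libraries. Smpdl3a, an LXR target, was at 15.3, 12.3 and 3.96 TPM (-1.84, -2.70 to -1.55), whereas Abca1 was nearly level at 38.7, 37.5 and 35.7 TPM, all above the 5.61 to 18.2 TPM of the libraries outside the sorted series. Rnf139, a sterol-binding ubiquitin ligase, was higher with GFP, at 6.93, 13.5 and 15.6 TPM (0.84 and 0.96).

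In the density pair the mevalonate genes were nearly level, while Ebp, Sc5d and Hsd17b7 of the sterol steps and Npc1 and Npc2 of the lysosome were higher in the mesenchymal-like library. The synthesis median was 0.05, beside -0.06 for all genes, and 0.34 when centred on the germ-cell markers. Of 28 genes 8 (28.6%) were called higher and 0 lower, beside 18.0% and 8.71% of all genes. The 6 mevalonate genes had ratios from -0.31 to 0.12. Ebp was at 2.16 TPM in the epithelial-like and 11.8 TPM in the mesenchymal-like library, its highest level in the 12 libraries (2.09, 1.51 to 3.64). Sc5d was at 28.3 and 58.3 TPM (1.08, 0.83 to 1.37), and Hsd17b7 at 10.3 and 17.3 TPM (0.78, 0.49 to 1.13). For Sc5d and Hsd17b7 the epithelial-like library was the lowest of the 12.

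Npc2 was at 69.3 and 201 TPM, the lowest and the highest of its 12 values (1.59, 1.47 to 1.73). Npc1, its membrane partner, was at 14.0 and 21.9 TPM (0.69, 0.45 to 0.96), and Abcg1 at 6.86 and 12.5 TPM (0.88, 0.48 to 1.37). Tm7sf2 (1 and 6 counts; 0.99, -0.42 to 8.15) and Nr1h3 (5 and 11 counts; 0.75, -0.46 to 3.05) were called on few reads and not with a pseudocount of 5 (0.30 and 0.31). When centred on the germ-cell markers, Insig2 (0.45) and Scap (0.37) passed 1.5-fold too (0.73 and 0.65). Insig1 went the other way, at 161 and 104 TPM (-0.57, -0.71 to -0.44), past 1.5-fold on the deposited TPM (-0.62) and on total counts (-0.64). Outside the set, Pltp, the phospholipid transfer protein, and Smpdl3a were higher (1.60, 1.18 to 2.23, and 1.88, 1.19 to 4.303), and Mylip was lower (-0.78, -1.49 to -0.24, and -0.50 when centred on the germ-cell markers). Fibroblast markers summed to 121 TPM in the epithelial-like and 3629 TPM in the mesenchymal-like library, and their part in these differences was not tested.

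After feeder removal the sterol genes were close to day 0. The synthesis median was 0.01 at day 4 and 0.04 at day 9, where all genes had medians of 0.03 and 0.02, and with Tm7sf2, which had 0 counts at day 0, set to its bound at 3 counts it was 0.01 and 0.04. At day 4, 0 of 28 genes were called in either direction, beside 5.89% of all genes higher and 4.88% lower. At day 9, 0 were higher and 1 (3.57%) was lower, beside 7.21% and 5.21% of all genes. That gene, Nr1h3, had 16, 16 and 2 counts at days 0, 4 and 9 (-1.40, with a counting interval of -6.84 to -1.58 that lacks the pseudocount), and its ratio was -0.45 with a pseudocount of 5. Fdps was at 417, 417 and 390 TPM, Sqle at 114, 113 and 118 TPM, and Srebf2 at 20.4, 20.7 and 21.5 TPM. Fibroblast markers summed to 191, 206 and 172 TPM in these libraries. The day 4 and day 9 ratios share the day 0 library.

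**Figure D4:**
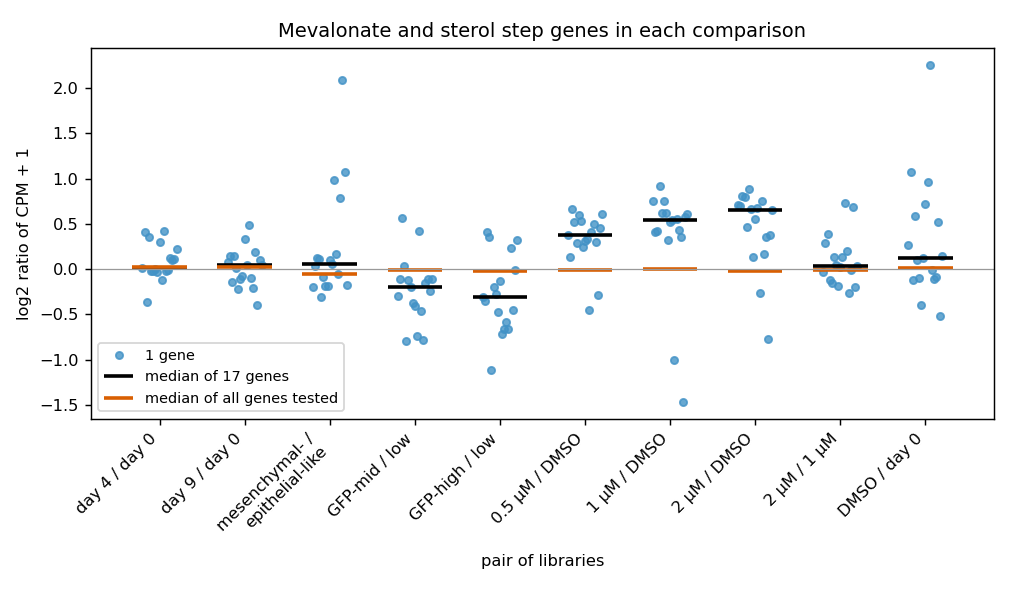
Log2 ratio of CPM + 1 of the 17 synthesis genes (points, placed sideways for visibility) in each pair of libraries, with their median (black) and the median of all genes tested (orange). The black line lies at 0.38, 0.55 and 0.65 for the 3 doses against DMSO, at -0.20 and -0.31 for the GFP fractions, and within 0.13 of 0 elsewhere.

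Srebf2 was lower in the feeder-removal series than in the other experiments. It was at 20.4 to 21.5 TPM in the 3 feeder-removal libraries, 64.7 and 78.7 TPM in the density pair, 87.3 to 121 TPM in the inhibitor series and 122 to 155 TPM in the sorted fractions. These ranges do not overlap on TPM, but on CPM those of the inhibitor series (238 to 332) and of the sorted fractions (320 to 427) do, and the density pair (202 and 236) adjoins the former. Mvk was at 7.64 to 10.7 TPM in the feeder-removal libraries and at 12.4 to 27.9 TPM in the other 9. Counted after these values were seen, 4 of the 28 genes (Mvk, Srebf2, Npc1 and Nr1h2) had lower CPM in all 3 feeder-removal libraries than in every other library and 0 had higher, beside 13.2% and 14.4% of all genes. The share with lower CPM was thus near that of all genes. Mvk was separated narrowly, with 9.82 CPM at day 4 and 10.4 CPM in GFP-high. Insig1 and Cyp51 did not separate in this way: in the feeder-removal libraries they lay at 89.2 to 103 and 38.6 to 46.7 TPM, and in the sorted fractions at 97.7 to 160 and 31.9 to 51.1 TPM.

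**Figure D5:**
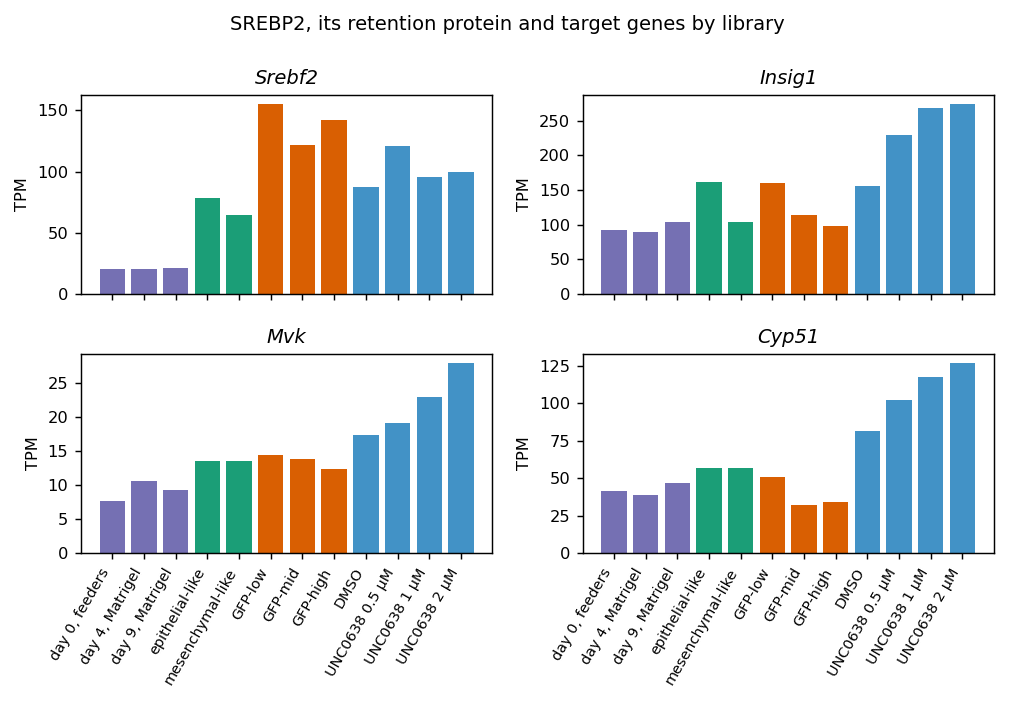
Deposited TPM of Srebf2, Insig1, Mvk and Cyp51 in each of the 12 libraries, coloured by experiment; each bar is 1 library. Srebf2 is at 20.4 to 21.5 TPM in the feeder-removal libraries and at 64.7 to 155 TPM in the others, while Insig1, Mvk and Cyp51 are highest at 1 and 2 µM UNC0638.

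The DMSO and day 0 libraries, both from feeder cultures without inhibitor, set a scale for differences between experiments. The synthesis median was 0.13 beside 0.01 for all genes. Of 28 genes 9 (32.1%) were called higher with DMSO and 1 (3.57%) lower, beside 23.1% and 18.3% of all genes. Srebf2 had the ratio 2.08 (1.94 to 2.26). Srebf1, the gene of SREBP1, was at 35.1 and 67.1 TPM (0.93, 0.79 to 1.08). Mvk (1.08, 0.67 to 1.70), Npc1 (1.24, 0.99 to 1.56), Cyp51 (0.96, 0.83 to 1.10), Insig1 (0.74, 0.63 to 0.86), Nr1h2 (0.74, 0.57 to 0.93), Lss (0.72, 0.56 to 0.90) and Mvd (0.59, 0.37 to 0.84; 0.57 on total counts and 0.55 with a pseudocount of 5) were higher, and Tm7sf2, with 0 counts at day 0 and 19 with DMSO, was at least 9.75-fold higher against a floor of 3 counts. Abcg1 was lower, at 26.0 TPM at day 0 and 12 TPM with DMSO (-1.09, -1.41 to -0.83). Fdps (-0.10), Sc4mol (-0.01) and Dhcr7 (0.14) were among those not called. Because no group was shared by experiments, a technical batch and the experiment cannot be told apart. Fibroblast markers also differed, at 191 TPM at day 0 and 1624 TPM with DMSO, and their part in the ratios was not tested.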

How the data were processed

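RNA of 12 libraries of cultured germline stem cells, 1 per group, was used; 4 ATAC-seq libraries listed in the labels are not analysed here. The RNA libraries were made by a modified Smart-seq2 procedure, per the labels' protocols. The submitters' processing notes name Trim Galore, RSEM and mm10; versions, aligner and annotation release are not given in the sources used here. The authors deposited 3 values per gene and library, the expected count, the TPM and the FPKM, per the file headers. The deposited expected counts were rounded here to whole numbers, the deposited TPM served as levels between genes, and the deposited FPKM were left aside.

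TMM factors (0.912 to 1.07) from edgeR 4.0.16 in R 4.3.3 scaled the counts to CPM. The filter kept genes whose mean reached 1 CPM, and a pseudocount of 1 was added before ratios were taken, which understates differences of low genes. A call is a ratio of at least 1.5-fold. No test was made, because each group has 1 library. Intervals on ratios are 95% Clopper-Pearson intervals of how the reads divide between both libraries, without the pseudocount. Reads were amplified and carry no molecular identifiers, so these intervals, and the floor of 3 counts (0.238 to 0.724 CPM), describe counting error only.

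The members and lists were chosen with earlier results of these data known. Any member could be named. Of the other pathway genes, the 8 with the largest ratios past 1.5-fold within the inhibitor, density and GFP experiments and at least 50 counts in the higher library were named, besides Srebf1; others are marked in the text. Some genes of that list are not reported here. Promoters are RefSeq windows of GRCm38.p6, of which 22 members had a usable one. The alternatives were size factors from DESeq2 1.42.0, scaling by library totals, ratios of the deposited TPM, pseudocounts of 0.1 or 5, a filter at 10 CPM or none, and centring on the germ-cell list. Scripts ran in Python 3.11.15 (pandas 2.3.3, numpy 2.4.6, matplotlib 3.10.9, scipy 1.17.1) and were tested on simulated data.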

Additional observations from a re-analysis of the deposited data

How the results depend on the processing

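No paired analysis was possible because each RNA group has 1 library, and for the same reason no library could be left out. Under the 8 alternatives, 145 summary values stayed close to those reported and 15 moved. The number of the 28 genes called at 1.5-fold became 1 at day 4 with a pseudocount of 0.1. At day 9 it became 2 on the deposited TPM or with that pseudocount, and 0 when the pseudocount was 5 or the filter 10 CPM, which leaves 25 genes. In the density pair it became 5 with the filter. For GFP-high it became 4 with a pseudocount of 5 and when centred on the germ-cell list. At 0.5 µM UNC0638 it became 2 under these alternatives, and between 1 and 2 µM it became 0 with a pseudocount of 5 and with the filter. Centring moved the synthesis median to 0.34 in the density pair and to -0.032 for GFP-mid, and the deposited TPM moved it to -0.16 for GFP-high. The medians at day 4 (-0.02 to 0.03) and in the density pair (-0.01 to 0.34) lay on both sides of 0. At 0.5, 1 and 2 µM the median ranged from 0.22 to 0.41, from 0.52 to 0.56 and from 0.59 to 0.80. Of the ratios of single genes, 2214 stayed close and 126 moved by the half-width of their counting interval or more; the cause was not tested. Depth limits Tm7sf2, Ebp and Nr1h3 most, and with a pseudocount of 5 their calls were lost in several comparisons.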
